A study of Homo sapiens with 60 samples.

Results

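The first hour of integrated stress response signalling was examined in U2OS Dmr-PERK cells, an established human osteosarcoma line carrying an engineered PERK kinase. Cells given 3 nM of the dimerizer AP20187 for 1 h (n = 3 libraries) were set against the second of the series' 2 untreated sets (UT 2, labelled 0 h, n = 3). The 6 libraries were chosen by their labels from 60 in the series, and UT 2 shares the sequencing depth of the 3 nM libraries. All expressed genes were taken, which were 18040 of the 57665 in the deposited table. Every library, the untreated ones included, came from the stable line that expresses the eIF2 alpha kinase domain of mouse PERK joined to a DmrB domain, and the genotype label was WT throughout. The promoter of the construct, and whether the line was 1 clone, are not given in the sources used here. The other libraries used were 3 nM at 2, 4, 8, 16 and 24 h, 195 pM at 1 h, 0.01 nM at 1 h and the first untreated set (UT), with 3 of each. Per the labels, drug was added to wells at set times before collection, and no untreated culture handled in parallel at 1 h was labelled. An effect of the addition itself therefore cannot be told apart from that of the drug.

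PERK is one of the human kinases that phosphorylate the translation initiation factor eIF2 alpha. Phosphorylation slows most protein synthesis but raises translation of the mRNA of ATF4, a transcription factor that then switches on genes for amino acid supply, redox balance and, with CHOP, cell death. Bringing kinase domains together with a dimerizer starts this pathway without a stressor in the endoplasmic reticulum. Independently of ATF4, a block of protein synthesis is known to cause "superinduction", in which mRNAs of immediate early genes, normally degraded within minutes, accumulate, and I kappa B alpha, the short-lived inhibitor of NF-kB, is lost. Whether either acted here was not tested.

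Total counts were 24348474 to 26599752 at 3 nM after 1 h and 20713981 to 26748455 in untreated set 2. Replicates were alike, with a median coefficient of variation of 3.07% and 2.92% over genes above 20 CPM (counts scaled to a common library total). Nothing in the labels says that the replicates came from separate cultures, and p-values therefore reflect a spread that may be technical. Genes of the mitochondrial genome took 5.08 to 5.22% of the counts at 3 nM after 1 h, 5.58 to 5.80% at 195 pM and 6.43 to 6.79% at 0.01 nM after 1 h, 5.42 to 5.57% in untreated set 2 and 10.0 to 11.3% in untreated set 1, so set 1 stood apart. Of the 13 mesenchymal and osteosarcoma markers 10 were expressed. The list summed to 6060 to 6200 CPM at 3 nM and 6920 to 7120 CPM in untreated set 2, with VIM the highest and COL1A2, NT5E and TWIST1 under 1 CPM in all 6 libraries. Of 11 blood and immune markers, 9 did not pass 1 CPM in any library, and the list summed to 2.52 to 3.75 CPM at 3 nM and 3.06 to 3.67 CPM in untreated set 2. The 10 epithelial markers summed to 805 to 832 CPM at 3 nM and 941 to 982 CPM in untreated set 2. Of the 8 tested, KRT18 and KRT8, which made up most of that sum, were lower and none was higher. That called share of 25% was near the 26.8% of all genes. The 7 endothelial markers summed to 7.17 to 8.16 and 6.59 to 7.5 CPM in these groups.

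After 1 h of 3 nM, 4843 genes (26.8% of those tested) differed from untreated set 2 at an edgeR adjusted p under 0.05, of which 2289 (12.7%) were higher and 2554 (14.2%) lower. Without regard to the test, the CPM of all 3 treated libraries lay above those of all untreated ones in 3550 genes (19.7%) and below them in 3760 (20.8%). Most changes were small. Those of at least 2-fold numbered 59 higher (0.327%) and 14 lower (0.0776%). The split depends on the scaling: 2922 genes were higher and 1832 lower when libraries were scaled by their totals only, and 757 were higher and 252 lower on the authors' TPM values with limma. Of the 59 genes at least 2-fold higher, 26 were protein-coding, and 42 had a mean of at least 1 CPM. The protein-coding ones above that level were, by size of change, AP003419.11, FOS, CHAC1, EGR4, DDIT3, JUN, CXCL8, ZNF792, DUSP1, CCL4, PTGS2, EGR1, ZFP36, PPP1R15A, ATF3, TNF, IER2, BICDL2, LY6G6C, FOSB, DDIT4 and ZNF79. They fall mainly into stress response regulators, immediate early genes, and cytokine genes known to respond to NF-kB.

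**Figure D1:**
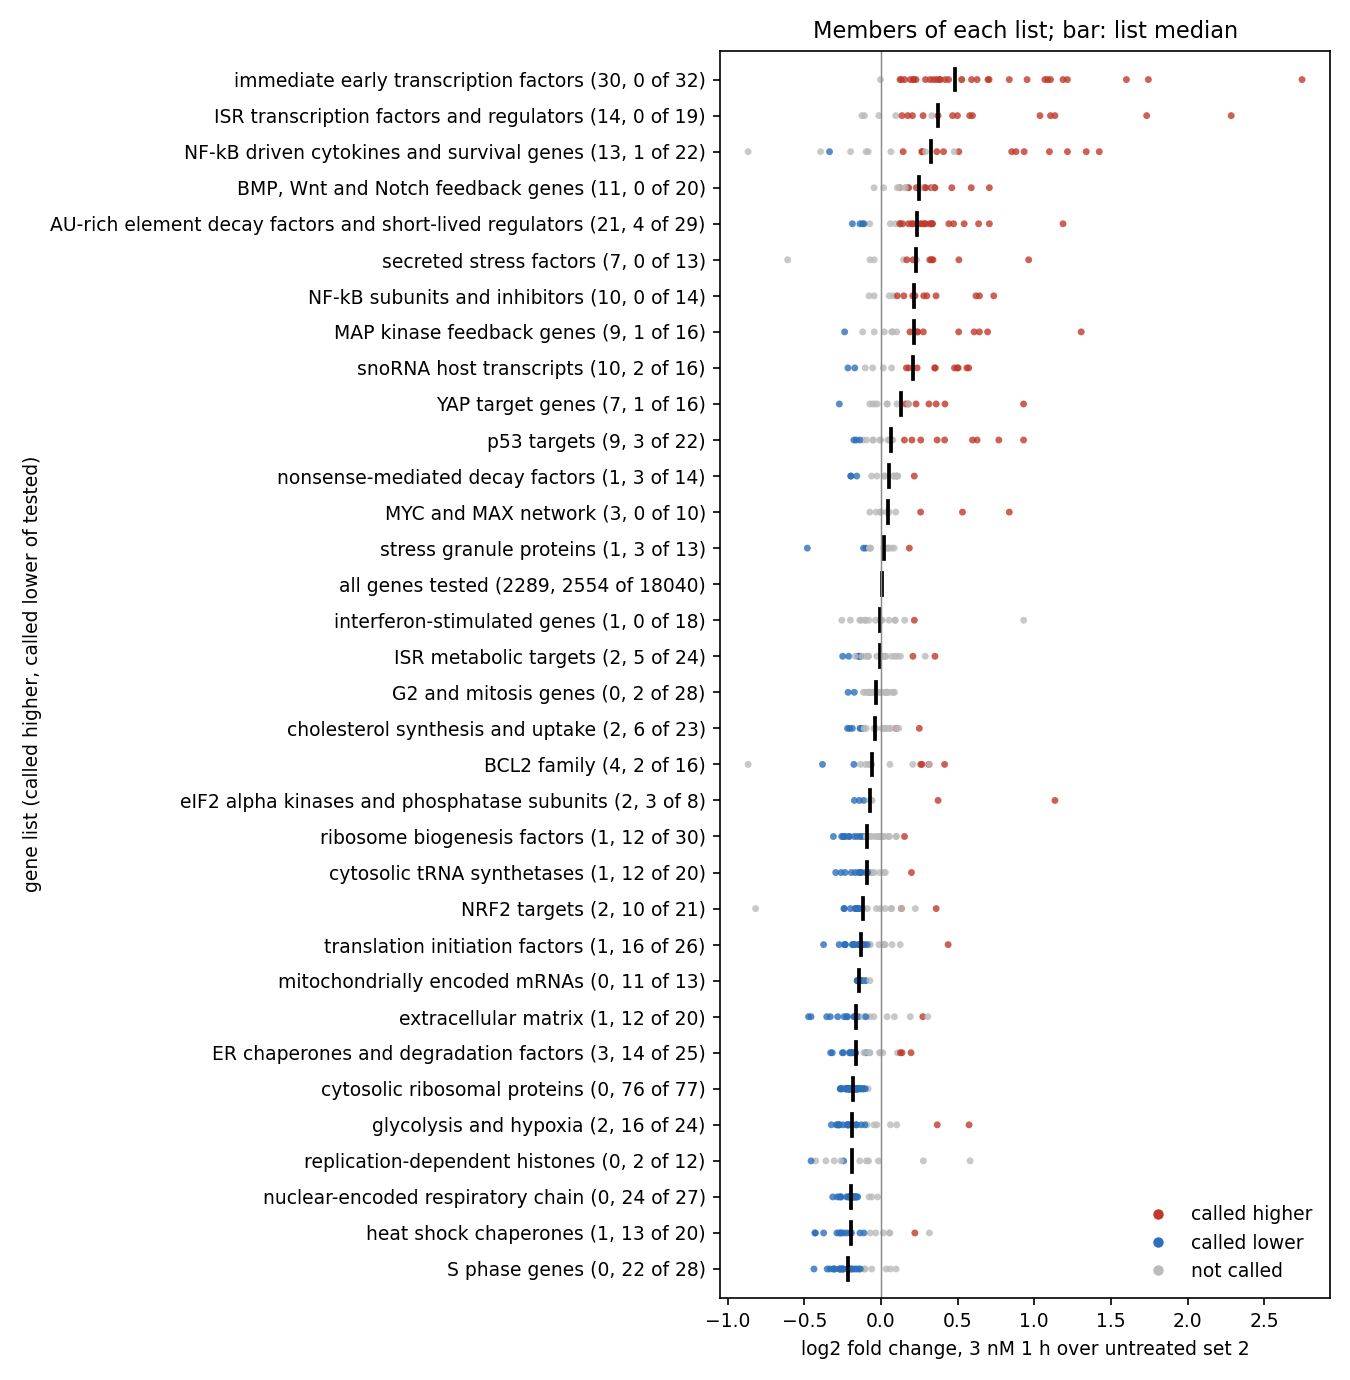
Each dot is a gene of the named list, placed by its log2 fold change at 3 nM after 1 h over untreated set 2, red where called higher, blue where called lower and grey where not called. Black bars are list medians, and the median over all 18040 genes was 0.004. Of the lists drawn, which leave out short structural RNAs (median 1.45, with 3 of 11 called higher), immediate early genes have the highest median (0.48) and S phase genes the lowest (-0.21).

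The regulators of the integrated stress response were already higher at 1 h. Of 19 tested transcription factors and regulators, 14 were higher and none lower, with a median log2 fold change of 0.37 against 0.004 over all genes. CHAC1, an enzyme that breaks down glutathione (chromosome 15, 40952962 to 40956519, with coordinates here and after on GRCh38 from GENCODE 29), had 16.6, 15.3 and 15.0 CPM at 3 nM, against 3.67, 2.77 and 3.07 CPM in untreated set 2. All treated values lay above all untreated ones, and the log2 fold change was 2.28 (SE 0.089, edgeR adjusted p = 9.8e-29). DDIT3, which encodes the transcription factor CHOP (chromosome 12, 57516588 to 57521737), had 80.6, 85.6 and 92.9 CPM at 3 nM and 24.7, 26.1 and 27.2 CPM in untreated set 2. Its groups did not overlap either, with a log2 fold change of 1.73 (SE 0.067, edgeR adjusted p = 9.8e-29). ATF4 itself (chromosome 22, 39519695 to 39522685) had 414, 389 and 412 CPM, against 296, 299 and 284 CPM in untreated set 2, a smaller difference of 0.47 (SE 0.033) that was again without overlap.

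Other regulators split by size. ATF3, a stress-induced transcription factor also counted among the early genes, differed by 1.11 on the log2 scale, DDIT4, an inhibitor of mTORC1 signalling, by 1.04, SESN2, another mTORC1 inhibitor, by 0.60, and CEBPB, a dimer partner of ATF4, by 0.58. Smaller rises were measured for CREBRF (0.50), NUPR1 (0.28), CEBPG (0.21), JDP2 (0.18) and XBP1 (0.14). Not past the threshold were TRIB1 (0.10), ATF5 (-0.11), CEBPA (0.33), CEBPD (-0.12) and TRIB3 (-0.01, edgeR adjusted p = 0.94). The gene for TRIB3, a known joint target of ATF4 and CHOP that feeds back on both, had 23.8, 22.0 and 23.7 CPM at 3 nM and 24.3, 22.9 and 22.8 CPM in untreated set 2, so its libraries overlapped at 1 h.

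**Figure D2:**
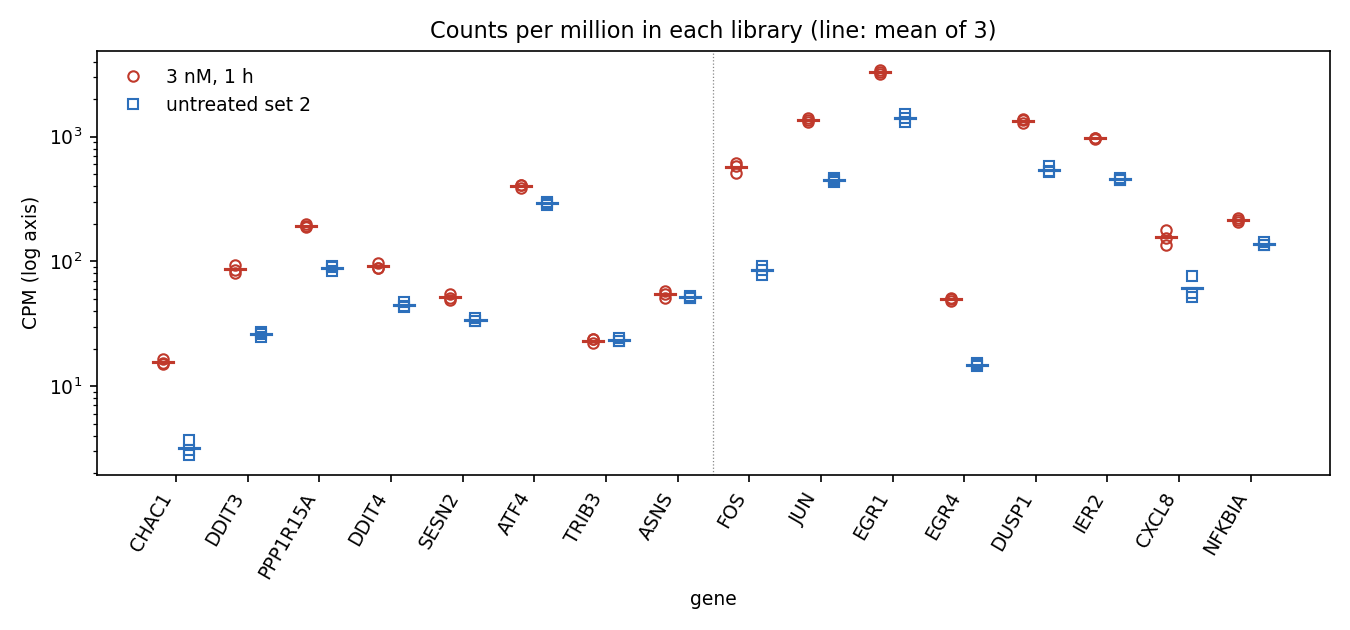
CPM of 16 genes in each of the 3 libraries at 3 nM after 1 h (red circles) and of untreated set 2 (blue squares) on a log axis, with the mean as a line. The groups stand apart for every gene drawn but TRIB3 and ASNS, whose log2 fold changes were -0.01 and 0.09. Levels of different genes are not to be compared, since CPM does not correct for length.

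Of the 8 genes for eIF2 alpha, its kinases and its phosphatase subunits, 2 were higher and 3 lower, a called share of 62.5% against 26.8% of all genes. PPP1R15A (GADD34), the inducible subunit that directs phosphatase to eIF2 alpha (chromosome 19, 48872392 to 48876057), had 190.3, 193 and 198 CPM at 3 nM, against 83.4, 92.0 and 89.9 CPM in untreated set 2 (log2 fold change 1.13, SE 0.047, edgeR adjusted p = 1.4e-27). PPP1R15B, the constitutive subunit, was higher by 0.37. PPP1CA, which encodes a catalytic subunit, was lower, at -0.17, and EIF2S1, which encodes eIF2 alpha, at -0.14. Of the kinases, EIF2AK1 was lower, at -0.11, while EIF2AK2, EIF2AK4 and EIF2AK3, the PERK gene, did not pass the threshold (-0.06, -0.07 and -0.07). Whether reads of the mouse kinase domain are counted at EIF2AK3 was not tested.

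The enzymes and transporters that ATF4 is known to raise had mostly not moved at 1 h. Of 24 tested, 2 were higher and 5 lower, with a median of -0.01 (0.09, with 4 higher and none lower, on TPM values). By edgeR the called share of 29.2% was near the 26.8% of all genes. The 2 that were higher both import amino acids: SLC3A2, a chain of the cystine and leucine transporters, differed by 0.35 and SLC38A2, a glutamine and alanine transporter, by 0.21. ASNS, asparagine synthetase, had 57.8, 51.0 and 55.2 CPM at 3 nM and 52.4, 50.6 and 51.0 CPM in untreated set 2 (log2 fold change 0.09, edgeR adjusted p = 0.26). PYCR1, of proline synthesis, and PSAT1, of serine synthesis, were lower, at -0.25 and -0.21. Among secreted stress factors 7 of 13 were higher and none lower, against 12.7% and 14.2% of all genes. GDF15 (0.34) and INHBE (0.51) were among them, and the median was 0.23. It was smaller over untreated set 1 (0.06) and over 0.01 nM at 1 h (0.07), where 3 were higher and none lower than at 0.01 nM.

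Of the promoters of regulators that had risen, those of CHAC1 and PPP1R15A are shown, chosen because they hold motifs bound by this pathway's factors. Sequences are those of RefSeq on GRCh38.p14, 250 bases before to 50 after the RefSeq start of the gene (which can differ from the GENCODE start), and capitals mark matches on either strand to TGATGNAA (the core of the C/EBP-ATF response element, which ATF4 binds), TGACGTCA (the cyclic AMP response element), TGANTCA (the AP-1 site) or TATAAA (the TATA box), or to the CArG box of serum response factor. No 2 matches overlap in the promoters shown.
CHAC1 (chr15:40953221-40953520, plus strand): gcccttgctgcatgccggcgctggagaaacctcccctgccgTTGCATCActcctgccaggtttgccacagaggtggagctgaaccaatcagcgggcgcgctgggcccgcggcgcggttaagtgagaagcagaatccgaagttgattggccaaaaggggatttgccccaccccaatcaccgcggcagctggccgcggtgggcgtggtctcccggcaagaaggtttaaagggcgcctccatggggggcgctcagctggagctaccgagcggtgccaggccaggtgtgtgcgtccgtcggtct
PPP1R15A (chr19:48872171-48872470, plus strand): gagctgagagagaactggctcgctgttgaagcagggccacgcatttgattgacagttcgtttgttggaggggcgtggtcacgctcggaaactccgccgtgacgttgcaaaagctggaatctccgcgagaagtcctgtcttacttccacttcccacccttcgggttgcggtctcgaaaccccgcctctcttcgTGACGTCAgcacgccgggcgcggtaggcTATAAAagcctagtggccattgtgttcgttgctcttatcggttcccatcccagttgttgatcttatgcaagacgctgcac
The CHAC1 match to the C/EBP-ATF element begins 209 bases before the start. PPP1R15A holds a cyclic AMP response element 58 bases and a TATA box 30 bases before the start. Of those not shown, ATF3 also held the C/EBP-ATF core, 191 bases before the start. DDIT3 held only an AP-1 site, 241 bases before it, and in DDIT4 none of these motifs was found. Sites outside this stretch, or with other letters, were not searched for, so a missing match does not show a missing site. Of the 16 tested regulators with a promoter in the table, 3 (18.8%) held the C/EBP-ATF core, against 1.71% of 10790 expressed protein-coding genes and 3.67% of all 27305 promoters. The list was picked as known regulators of this pathway and counted whether higher here or not. Its share of the C/EBP-ATF core therefore says nothing of the response at 1 h. A match describes letters and shows no binding.

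Immediate early genes, whose transcription needs no new protein, had the largest share of members called higher among the rising groups. Of 32 tested, 30 were higher and none lower, and the median log2 fold change was 0.48. FOS, a subunit of the AP-1 transcription factor (chromosome 14, 75278774 to 75282230), had 512, 582 and 618 CPM at 3 nM, against 77.6, 85.4 and 92.1 CPM in untreated set 2. It showed the largest difference of any gene with a mean above 10 CPM, with a log2 fold change of 2.75 (SE 0.083, edgeR adjusted p = 1.2e-33) and groups far apart. JUN, its partner (chromosome 1, 58780788 to 58784327), had 1325, 1365 and 1414 CPM, against 436, 452 and 465 CPM in untreated set 2, a log2 fold change of 1.60 (SE 0.051). EGR1, a zinc finger transcription factor (chromosome 5, 138465490 to 138469315), had 3181, 3312 and 3429 CPM, against 1323, 1413 and 1535 CPM in untreated set 2. The EGR1 groups did not overlap, and its log2 fold change of 1.22 came with the largest rise in CPM of any gene, a scale not corrected for length. EGR4, of the same family (chromosome 2, 73290929 to 73293705), had 50.2, 47.9 and 50.9 CPM, against 14.4, 15.2 and 14.9 CPM in untreated set 2, a log2 fold change of 1.74.

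The other members ranged widely. ZFP36, an mRNA decay factor, differed by 1.19, IER2 by 1.09, FOSB by 1.07, EGR2 by 0.95, MYC, which drives growth, by 0.84, IER3 by 0.71 and KLF6 by 0.70. The nuclear receptors NR4A2, NR4A3 and NR4A1 differed by 0.59, 0.53 and 0.44, and CYR61, a secreted matrix protein and YAP target, by 0.42. At the low end stood FOSL1 (0.13) and ZFP36L1 (0.12), still past the threshold. SRF, which encodes the factor that drives many of these genes, was level (edgeR adjusted p = 0.97), and EGR3 at 0.53 (adjusted p = 0.057).

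Feedback inhibitors of MAP kinases, themselves early response genes, were higher in 9 of 16 cases and lower in 1, with a median of 0.21. DUSP1, a nuclear phosphatase of p38, JNK and ERK (chromosome 5, 172768090 to 172771195), had 1289, 1370.2 and 1386 CPM at 3 nM, against 531, 524 and 580.0 CPM in untreated set 2 (log2 fold change 1.31, SE 0.053, edgeR adjusted p = 9.7e-28). DUSP8 differed by 0.70, DUSP2 by 0.64, DUSP10 by 0.61 and SPRY2, an inhibitor of receptor signalling to ERK, by 0.51. ETV4, a factor downstream of ERK, was the member that was lower (-0.24).

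FOS and EGR1 promoters are shown with the same marks, as those of the early genes with the largest fold change and the largest rise in CPM.
FOS (chr14:75278578-75278877, plus strand): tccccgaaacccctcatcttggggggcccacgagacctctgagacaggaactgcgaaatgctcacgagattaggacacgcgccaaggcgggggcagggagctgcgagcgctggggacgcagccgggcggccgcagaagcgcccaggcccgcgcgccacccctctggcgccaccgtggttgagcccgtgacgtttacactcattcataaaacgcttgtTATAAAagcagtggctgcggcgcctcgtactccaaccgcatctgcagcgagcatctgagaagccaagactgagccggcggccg
EGR1 (chr5:138465229-138465528, plus strand): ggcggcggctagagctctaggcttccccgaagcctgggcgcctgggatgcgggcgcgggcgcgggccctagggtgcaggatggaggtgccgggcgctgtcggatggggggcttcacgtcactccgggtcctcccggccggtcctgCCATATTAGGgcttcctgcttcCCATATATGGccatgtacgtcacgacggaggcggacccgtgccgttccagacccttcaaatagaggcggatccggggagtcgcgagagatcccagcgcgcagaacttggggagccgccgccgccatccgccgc
FOS held a TATA box 33 bases before the start, and EGR1 held CArG boxes 105 and 83 bases before it. Among the 154 promoters found for the 186 protein-coding genes that were at least 1.5-fold higher with a mean of at least 1 CPM, 12.3% held TATAAA, against 5.66% of the promoters of expressed protein-coding genes. Of all 27305 RefSeq promoters 12% held TATAAA, a share close to that of the risen genes. Of the 186 risen genes, 63 had a ZNF symbol and a mean of 1 to 20 CPM in untreated set 2. That zinc finger family is described below, and the motif shares were not computed without it. The CArG box was in 0.649% of the promoters of risen genes, against 1.05% of expressed ones and 1.29% of all, and the AP-1 site in 3.9%, against 4.55% and 7.76%. The kB site, GGG, any 2 bases and TTTCC, was in 3.9%, against 2.06% and 1.92%, the cyclic AMP response element in 3.9%, against 3.26% and 1.98%, and the C/EBP-ATF core in 3.25%, against 1.71% and 3.67%.

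The size of the early gene change depended on the untreated set. Untreated set 1 had more FOS mRNA, which averaged 85.0 CPM in untreated set 2 and 649.7 CPM in set 1. Against set 1 the log2 fold change of FOS at 3 nM after 1 h was -0.19 and that of FOSB -1.89, while the list's median was 0.20. Against the libraries given 0.01 nM for 1 h, which also had the drug added 1 h before collection but are shallower, FOS differed by 0.54, JUN by 0.90, EGR1 by 0.47, EGR4 by 1.24 and FOSB by -1.21, and 25 of the 32 genes were higher and 2 lower. The median of the 19 stress response regulators was 0.16 over set 1 and 0.30 over 0.01 nM, with 14 higher and 1 lower over 0.01 nM. CHAC1 stood 1.45 above set 1 and 2.03 above 0.01 nM, and DDIT3 1.13 and 1.17. Of the 42 genes at least 2-fold higher with a mean of at least 1 CPM, 31 were higher, 2 lower and 9 not called against set 1, where 24.1% of all genes were higher and 21.8% lower. Against 0.01 nM 29 were higher, 1 lower and 12 not called, with 17.5% and 14.4% of all genes. These comparisons share the 3 nM libraries.

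**Figure D3:**
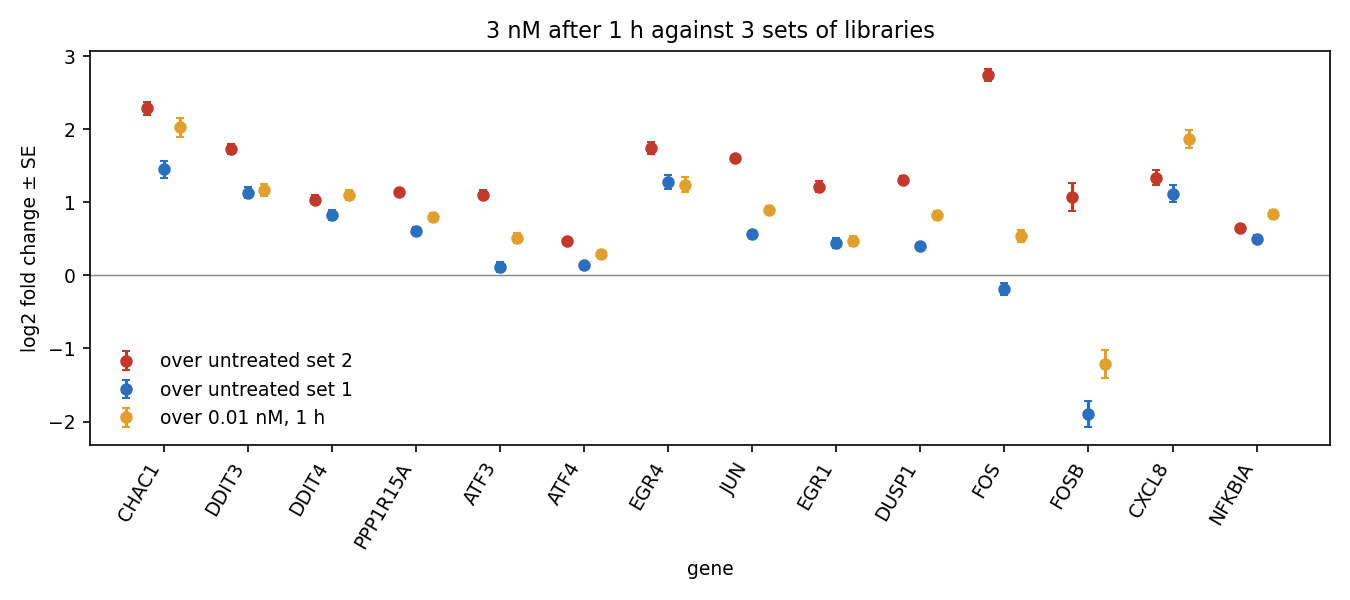
The log2 fold change at 3 nM after 1 h, with its SE, over untreated set 2 (red), untreated set 1 (blue) and 0.01 nM after 1 h (yellow) for 14 genes. CHAC1, DDIT3, DDIT4, EGR4 and CXCL8 lie above 0.8 over each of the 3, while FOS lies at 2.75 over set 2 and -0.19 over set 1, and FOSB at 1.07 and -1.89.

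Genes of NF-kB, a transcription factor held in the cytoplasm by I kappa B proteins, were higher as well. Of its 14 tested subunits and inhibitors 10 were higher and none lower (median 0.22). NFKBIZ, an atypical nuclear I kappa B, differed by 0.74, NFKBIA, which encodes I kappa B alpha, by 0.64, TNFAIP3 (A20), a ubiquitin-editing inhibitor, by 0.62, and NFKBIE and RELB by 0.36 and 0.30. RELA was at 0.05, not past the threshold.

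Of 22 tested cytokine and survival genes that NF-kB drives, 13 were higher and 1 lower, with a median of 0.33. CXCL8 (interleukin-8), a neutrophil attractant (chromosome 4, 73740506 to 73743716), had 177, 155 and 135 CPM at 3 nM, against 76.3, 55.8 and 52.0 CPM in untreated set 2. The spread within its groups was wide but they did not overlap (log2 fold change 1.34, SE 0.098, edgeR adjusted p = 1.4e-16). PTGS2, the inducible cyclooxygenase, had 24.8, 26.8 and 26.2 CPM, against 10.9, 11.1 and 11.5 CPM in untreated set 2, and TNF had 3.96, 3.32 and 3.24 CPM, against 1.72, 1.72 and 1.46 CPM. Both were clear of the untreated range, at 1.22 and 1.10. CCL2, a monocyte attractant, was the one that was lower, at -0.33 (edgeR adjusted p = 0.011), and CSF2 (-0.39) did not pass. Against set 1 and against 0.01 nM at 1 h the list's medians were 0.60 and 0.66. Of the 20 with a promoter in the table, 8 (40%) held TATAAA and 6 (30%) held the kB letters, against 5.66% and 2.06% of expressed protein-coding genes and 12% and 1.92% of all promoters. The list was picked as genes driven by NF-kB and counted whether higher here or not. Its share of kB letters therefore says nothing of the response at 1 h. The CXCL8 promoter is given as that of the most raised member above 1 CPM. No exact match to the kB letters was found in it, although its stretch tggaatttcc differs from them in only 1 base. It holds an AP-1 site 137 bases and a TATA box 31 bases before the start.
CXCL8 (chr4:73740319-73740618, plus strand): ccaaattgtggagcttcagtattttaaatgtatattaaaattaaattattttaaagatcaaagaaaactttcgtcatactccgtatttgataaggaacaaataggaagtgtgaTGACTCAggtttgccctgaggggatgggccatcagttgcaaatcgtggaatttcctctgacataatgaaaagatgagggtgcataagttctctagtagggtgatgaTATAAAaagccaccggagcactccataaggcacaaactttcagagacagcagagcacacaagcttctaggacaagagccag

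Other short-lived transcripts moved with these. Of 29 tested decay factors and short-lived regulators 21 were higher and 4 lower (median 0.23), with HES1, a Notch-driven repressor, at 0.71, TSC22D3 at 0.64, the clock repressor NR1D1 at 0.54, and HNRNPD, an AU-rich element binding protein, lower, at -0.19. Feedback genes of BMP, Wnt and Notch signalling were higher in 11 of 20 cases and lower in none, among them SMAD7 (0.59), BAMBI (0.46) and AXIN2 (0.35). Host transcripts of small nucleolar RNAs, many of which translating ribosomes send to nonsense-mediated decay, were higher in 10 of 16 cases and lower in 2 (median 0.21). SNHG12 differed by 0.57, SNHG8 by 0.56 and SNHG5 by 0.50, while DANCR and RACK1 were lower, at -0.21 and -0.17. Of the 14 decay factors of that pathway, 1 (UPF2, 0.22) was higher and 3 lower, a called share of 28.6% that is near the 26.8% of all genes. Among p53 targets 9 of 22 were higher and 3 lower, against 12.7% and 14.2% of all genes. GADD45B (0.93) and GADD45A (0.77) were among those higher, but the list was close to level. Its median was 0.06, and it was -0.03 over untreated set 1 and 0.03 over 0.01 nM at 1 h. Of 10 genes of the MYC and MAX network 3 were higher and none lower, which were MYC, MXD1 (0.53) and MNT (0.26), and that share of 30% is also near the background. Of 18 interferon-stimulated genes only IRF9 (0.22) was called, a share of 5.56% that is below the 26.8% over all genes.

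A family with small but shared rises was the zinc finger genes, noticed among the largest changes and so counted after the values were seen. Of 446 tested genes with a ZNF symbol, most of which encode DNA-binding repressors with arrays of zinc fingers, 282 (63.2%) were higher and 7 (1.57%) lower, against 12.7% and 14.2% of all genes. Their median log2 fold change was 0.33. Among those with a mean of 1 to 20 CPM in untreated set 2, 201 of 314 were higher and 1 lower, against 461 higher and 194 lower of 4819 other protein-coding genes of that level. On chromosome 19, which holds 206 of them, 138 were higher (median 0.40), and elsewhere 144 of 240 (median 0.26). ZNF792 (chromosome 19, 34956354 to 34964049) had 2.76, 2.90 and 2.80 CPM at 3 nM, against 1.01, 1.48 and 0.898 CPM in untreated set 2, a log2 fold change of 1.34. ZNF79 and ZNF669 differed by 1.02 and 0.98, and ZNF326 was the lowest of those called, at -0.33. The family's median was 0.46 over untreated set 1 and 0.32 over 0.01 nM at 1 h. At 195 pM and 0.01 nM after 1 h it was 0.24 and 0.10 over set 1. On TPM values 84 were higher and none lower, with a median of 0.34.

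**Figure D4:**
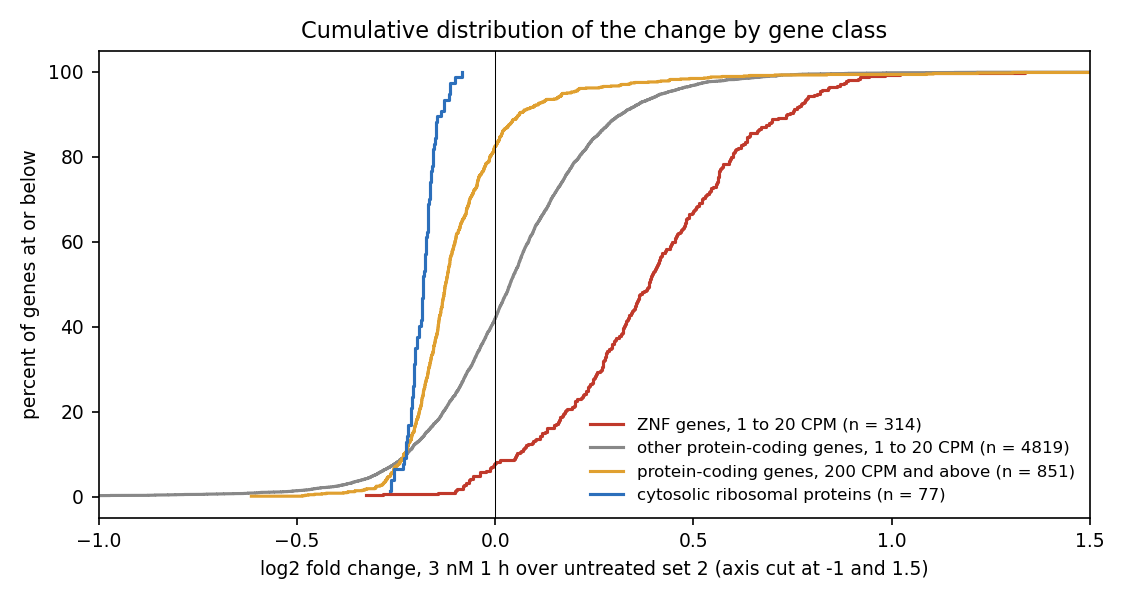
Cumulative share of genes against the log2 fold change at 3 nM after 1 h over untreated set 2. ZNF genes at 1 to 20 CPM (red) lie to the right of other protein-coding genes of that level (grey), with medians of 0.39 and 0.04, while genes at 200 CPM and above (yellow) and cytosolic ribosomal protein genes (blue) lie to the left, with medians of -0.125 and -0.181.

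The falls were shallow and broad, and the median change was lowest among abundant mRNAs. Small changes pass the threshold more readily at high counts, so called shares of classes that differ in level are not directly comparable. Among protein-coding genes at 200 CPM and above in untreated set 2, 544 of 851 (63.9%) were lower and 71 (8.34%) higher, with a median of -0.125, whereas at 1 to 5 CPM 20 of 2105 (0.95%) were lower and 152 (7.22%) higher, with a median of 0.07. The medians of the classes between, at 5 to 20, 20 to 50 and 50 to 200 CPM, were 0.04, 0.001 and -0.044. Those classes rest on the level in untreated set 2, which is also the base of the fold change. By the mean level over the 6 libraries, a choice made after seeing the data, the medians were 0.069, 0.036, -0.002, -0.039 and -0.12 from the lowest class to the highest. Of 77 cytosolic ribosomal protein genes 76 were lower, between -0.10 for RPS12 and -0.26 for RPS15, and RPL28 did not pass (-0.08). Their summed level was 39750 to 41040 CPM at 3 nM and 44980 to 46090 CPM in untreated set 2. EEF1A1, the elongation factor that brings tRNAs to the ribosome, had 8576, 8591 and 8507 CPM, against 9342, 9382 and 9307 CPM in untreated set 2, and ACTB, beta-actin, 4716, 4484 and 4563 CPM, against 5165, 4912 and 5018 CPM. Both groups of values were without overlap although the differences were only -0.13 and -0.13. On TPM values EEF1A1 was at -0.04 (limma adjusted p = 0.48) and ACTB at -0.05 (0.415), and neither was called.

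These falls depended on the scaling and on the control. On TPM values 32 of 77 ribosomal protein genes were lower and none higher (median -0.10, against 0.07 over all genes on that scale). Of other groups that were lower, the TPM values called lower 8 heat shock chaperones, 6 glycolysis genes, 3 S phase genes, 3 chaperones of the endoplasmic reticulum, 2 respiratory chain genes, 2 matrix genes and no mitochondrially encoded mRNA. Against 0.01 nM at 1 h the ribosomal protein median was -0.03, with 6 higher and 11 lower, and against untreated set 1 it was -0.31. CPM here are relative to library totals adjusted by TMM. Over all genes tested they summed to 962800 to 971800 at 3 nM and 987500 to 998800 in untreated set 2. The size of each fall in CPM therefore depends on the scaling chosen. A higher share of other mRNAs and less of these cannot be told apart here. Fewer cells and less RNA per cell leave no trace in such values.

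Other household groups moved the same way by similar amounts over untreated set 2, where 14.2% of all genes were lower. Nuclear-encoded respiratory chain genes were lower in 24 of 27 cases (median -0.19), mitochondrially encoded mRNAs in 11 of 13 (median -0.14), and glycolysis and hypoxia genes in 16 of 24 with 2 higher (median -0.19). MT-CO1 and MT-CO3, both of cytochrome c oxidase, were lower, at -0.15 and -0.15, and the glycolytic enzymes PGAM1 and ENO1 at -0.32 and -0.29. TXNIP, an inhibitor of glucose uptake, was higher by 0.57. Of 26 initiation factors 16 were lower and 1, EIF4A2, an RNA helicase of cap-dependent initiation, was higher, at 0.44. EIF4EBP1, a brake on that step, had the largest fall of the list (-0.37). Of 20 cytosolic tRNA synthetases 12 were lower and 1 (CARS, 0.20) higher, but on TPM values 5 were higher and none lower. Ribosome biogenesis factors were lower in 12 of 30 cases (median -0.09, and -0.001 on TPM values). Most of these falls did not hold over 0.01 nM at 1 h. The medians there were -0.04 for respiratory chain genes, 0.005 for initiation factors and 0.03 for tRNA synthetases. For ribosome biogenesis factors the median was 0.145, with 16 higher and 1 lower. Glycolysis genes (-0.115) and mitochondrially encoded mRNAs (-0.41) stayed lower.

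Chaperone genes were mostly lower, both on the heat shock list and on that of the endoplasmic reticulum. Of 20 heat shock chaperones 13 were lower and 1 (HSPB8, 0.22) higher, with HSPE1, HSPA1A and HSPA8 lower, at -0.43, -0.43 and -0.37. Of 25 genes for folding and degradation in the endoplasmic reticulum 14 were lower, led by HSPA5 (BiP) at -0.33 and MANF at -0.32. The 3 that were higher, ERN1 (0.20), XBP1 (0.14) and HERPUD1 (0.13), encode a sensor and targets of the unfolded protein response. Both lists also had negative medians on TPM values (-0.13 and -0.09), over untreated set 1 (-0.35 and -0.25) and over 0.01 nM at 1 h (-0.07 and -0.11).

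S phase genes were lower in 22 of 28 cases and higher in none (median -0.21), with PCNA, the replication clamp, at -0.44. Of 28 genes of G2 and mitosis, 2 were lower, PTTG1 (-0.21) and CDK1 (-0.17), a called share of 7.14% against 26.8% of all genes. Neither pattern held over 0.01 nM at 1 h, where 8 S phase genes were higher and 1 lower (median 0.08) and 22 mitosis genes were higher and none lower (median 0.26). Extracellular matrix genes were lower in 12 of 20 cases, led by COL6A3 (-0.47) and FN1, fibronectin (-0.46), and they stayed lower over 0.01 nM (median -0.40). Among 13 stress granule proteins 3 were lower and 1 (TIA1, 0.19) higher, a called share of 30.8% against 26.8% of all genes. DDX3X, an RNA helicase that aids initiation and one of those lower, had 421, 425 and 403 CPM at 3 nM, against 581, 579 and 582 CPM in untreated set 2, a log2 fold change of -0.48 (SE 0.026, edgeR adjusted p = 6.9e-22), and it was at -0.35 over set 1 and -0.22 over 0.01 nM.

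Individual falls beyond these groups were mostly in weakly expressed genes. MIR222HG, the host transcript of the microRNAs miR-221 and miR-222 (chromosome X, 45745211 to 45770274), had 19.0, 20.1 and 17.5 CPM at 3 nM, against 36.0, 37.6 and 35.0 CPM in untreated set 2. It was the clearest of them, with a log2 fold change of -0.94 (SE 0.073, edgeR adjusted p = 1.8e-15). MMP9, a matrix metalloproteinase, had 7.68, 4.19 and 4.44 CPM, against 11.9, 9.65 and 10.1 CPM in untreated set 2, with the first treated library close to the untreated range (-0.97). ICAM3, an adhesion molecule of leukocytes, was lower, at -1.05, OLAH, a fatty acid thioesterase, at -0.88, SLC5A9, a sugar transporter, at -0.83, ESM1, a secreted proteoglycan, at -0.79, and CHI3L1, a secreted glycoprotein, at -0.78. The non-coding transcripts CTC-338M12.4, RPSAP52 and RP11-17M16.2 and the pseudogenes MYH16 and HNRNPA3P6 were lower, at -0.94, -0.78, -0.76, -0.93 and -1.51. HNRNPA3P6 and RPSAP52 resemble expressed genes closely, so their estimated counts are uncertain. On TPM values none of these kept its call but MIR222HG (-0.85, limma adjusted p = 2.5e-07) and MMP9 (-0.83, 0.000261). Leaving out single libraries ended the calls of ICAM3 (adjusted p = 0.0538 without the first untreated library), SLC5A9 (0.068 and 0.0756 without the first treated or first untreated library), CHI3L1 (0.0751 and 0.0777 without the second or the third treated library) and RP11-17M16.2 (up to 0.146 without the first untreated library).

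Several large rises are uncertain for the same reason or for low counts. AP003419.11 had 5.12, 2.86 and 2.04 CPM at 3 nM, against 0, 0.908 and 0 CPM in untreated set 2, where 2 libraries were at 0. Its log2 fold change was 3.63 (SE 0.99), and it moved between 3.00 and 8.48 when single libraries were left out. The transcripts RNA5S1, RNA5-8S5, RMRP and CH507-513H4.6 (an uncharacterised transcript on chromosome 21) differed by 1.73, 1.45, 1.91 and 1.32. All 4 lost their call when only the 21 deep libraries were fitted (adjusted p = 0.198, 0.138, 0.0869 and 0.0653), and leaving out the second untreated library also ended the calls of RNA5S1, RNA5-8S5 and CH507-513H4.6 (0.0573, 0.0569 and 0.0504). RNA5S1 and RNA5-8S5 lost theirs without the third untreated library too (0.0634 and 0.0804), and RNA5-8S5 without the first treated one (0.0517). Among pseudogenes and non-coding transcripts, CLUHP4, CH17-53B9.2, SPATA31C1 and SMG1P2 were higher by 1.95, 1.55, 1.53 and 1.41, and RP13-329D4.3, RP11-1100L3.8 and RP11-464F9.1 by 1.81, 1.45 and 1.44. The last lost its call without the third untreated library (adjusted p = 0.0847).

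Genes with the larger changes in either direction were short. The 186 protein-coding genes called and at least 1.5-fold higher, at a mean of at least 1 CPM, had a median gene span of 17.2 kb and 4 exons in the longest transcript, against 34.0 kb and 8 exons over 13442 expressed protein-coding genes. Of the 186, 40 (21.5%) spanned under 5 kb, against 7.91% of all. The 186 include 63 ZNF genes with a mean of 1 to 20 CPM in untreated set 2, and spans were not computed without that family. The 129 genes at least 1.25-fold lower were as short, with a median of 16.9 kb and 28 (21.7%) under 5 kb, while the 703 at least 1.25-fold higher had a median of 26.5 kb and 10.4% under 5 kb. Among the 1063 genes under 5 kb, 93 (8.75%) were higher and 363 (34.1%) lower (median -0.10), whereas above 100 kb 532 of 2797 (19%) were higher and 222 (7.94%) lower (median 0.04).

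The 1 h state was followed at 3 nM, where later times share the untreated libraries and are given side by side. FOS stood at 2.75, 0.97, -1.04 and -3.26 over untreated set 2 after 1, 2, 4 and 24 h. JUN stood at 1.60, 1.35, -0.62 and -0.89. CHAC1 was at 2.28, 4.32, 4.55 and 4.50, and TRIB3 at -0.01, 1.29, 3.68 and 4.60. So FOS and JUN were below the untreated level by 4 h, and CHAC1 and TRIB3 were not. Medians of the early gene list were 0.48, 0.57, -0.55 and -1.57 at these times, and those of the ATF4-driven enzymes and transporters -0.01, 0.65, 1.81 and 1.90.

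The step from 1 to 2 h was tested directly, with 5648 genes called (31.3%), of which 3482 (19.3%) were higher and 2166 (12%) lower at 2 h. FOS was lower, at -1.78 (SE 0.078), EGR1 at -0.91 and DUSP1 at -0.74 at 2 h than at 1 h, whereas CHAC1 was higher by 2.03, TRIB3 by 1.31, ASNS by 0.93 and CXCL8 by 2.03. Of the ATF4-driven enzymes and transporters 22 of 24 were higher at 2 h than at 1 h and 1 lower. All 22 NF-kB driven cytokine and survival genes were higher, and the early genes split into 16 higher and 13 lower. Of 20 tRNA synthetases 17, and of 30 ribosome biogenesis factors 24, were higher and none lower. Of 77 ribosomal protein genes 16 were higher and none lower. On TPM values 1617 genes were called in this step.

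**Figure D5:**
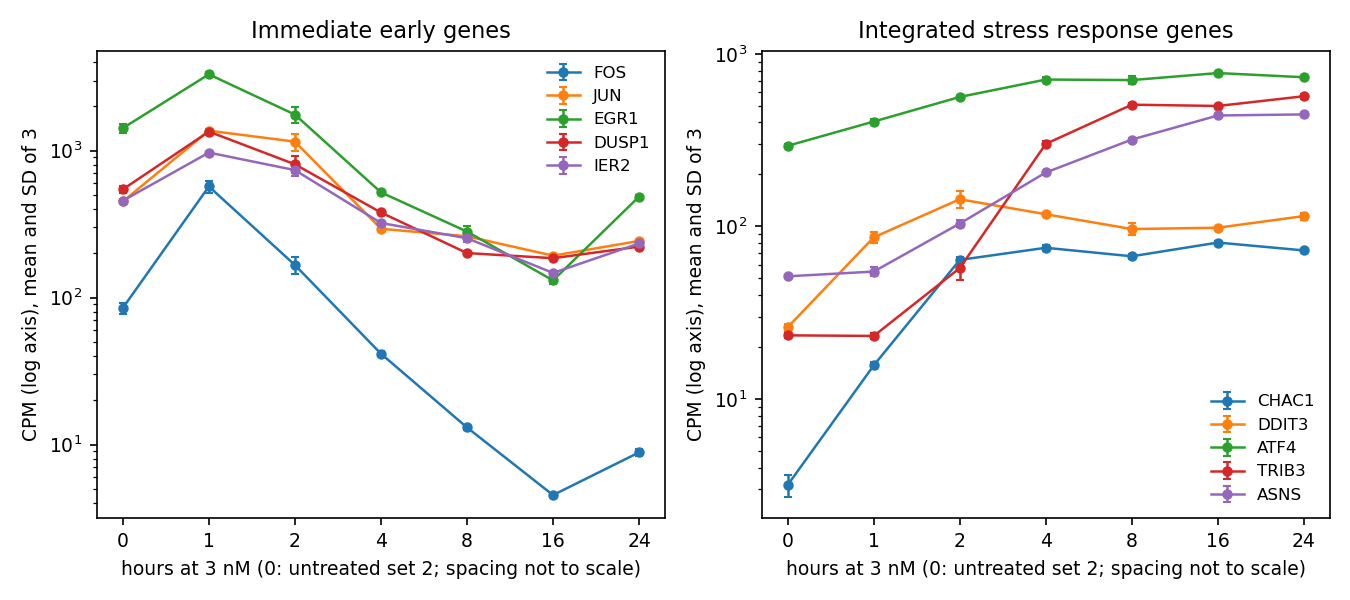
Mean CPM with SD of 3 libraries on a log axis at 0 h (untreated set 2) and at 1 to 24 h of 3 nM, for 5 immediate early genes (left) and 5 genes of the integrated stress response (right). The early genes drawn are highest at 1 h, for example EGR1 with 3307 CPM at 1 h, while TRIB3 and ASNS begin to rise at 2 h, with TRIB3 at 23.2 CPM at 1 h and 301 CPM at 4 h.

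At the same duration, 195 pM against untreated set 1 shares no library with the comparison above. CHAC1 averaged 9.30 ± 1.79 CPM at 195 pM and 5.66 ± 0.816 CPM in untreated set 1 (SD, n = 3 each), a log2 fold change of 0.74, and DDIT3 differed by 0.51. The difference between the responses at 3 nM and at 195 pM was 1.55 for CHAC1 (SE 0.18, edgeR adjusted p = 3.7e-09) and 1.22 for DDIT3 (SE 0.12, edgeR adjusted p = 6.1e-12). Over all genes 2334 (12.9%) differed between the doses in this way. Dose and depth change together in this contrast and cannot be told apart, and the untreated sets themselves differed in 5215 genes (28.9%). Within the 1 h libraries, CHAC1 averaged 3.80 CPM at 0.01 nM, 9.30 CPM at 195 pM and 15.6 CPM at 3 nM. DDIT3 averaged 38.3, 56.6 and 86.4 CPM, FOS 391, 441 and 570.5 CPM, and TRIB3 21.6, 21.6 and 23.2 CPM at these doses. So the first 3 were highest at 3 nM after 1 h, and TRIB3 was close to level.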

How the data were processed

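RNA-seq libraries of U2OS Dmr-PERK cells were strand-specific and made from total RNA. The authors deposited estimated counts per gene from Salmon 0.9.1 on GRCh38, per the submitters' processing notes, which also name FastQC 0.11.5, and a table of TPM values by gene symbol, also deposited by the authors. Of the estimated counts above 0, 54.2% were whole within 1e-06, and all were rounded here. Reads of near-identical genes are shared out by Salmon as estimates. Libraries of the 3 nM groups and untreated set 2 were deeper than the rest, and depth was compared as total counts.

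Groups came from the sample titles. All 60 libraries were fitted at once with edgeR 4.0.16 (R 4.3.3), with 20 group means, 40 residual degrees of freedom, TMM scaling and the quasi-likelihood F test, on the 18040 genes left by filterByExpr. P-values were adjusted by the Benjamini-Hochberg method and called under 0.05. The SE of a log2 fold change is its size divided by the root of F. Lists are described by counts and medians beside those of all genes. The members and gene lists were chosen with earlier results of these data known. Named genes were the 20 most raised and 12 most lowered by fold, and the 6 and 4 by CPM, among called genes with a mean of at least 1 CPM and no overlap between groups, plus members of the lists. Some genes at least 2-fold higher and the ZNF symbol family were named after their values were seen. Pseudogenes and repeated structural RNAs are marked uncertain.

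Alternatives were DESeq2 1.42.0, limma 3.58.1 on log2(TPM + 0.5) and log2(TPM + 0.1), other scalings, filters, controls, subsets of libraries, a replicate block and the omission of single libraries. The control of 0.01 nM after 1 h, scaling by library totals only and abundance classes over the 6 libraries were added after seeing the data. Gene positions and types are those of GENCODE 29, which held 57068 of the genes. Promoters were read from RefSeq GRCh38.p14 and matched by symbol.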

Additional observations from a re-analysis of the deposited data

Results flagged for a closer look

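The response at 3 nM after 1 h over untreated set 2 was set against that at 195 pM after 1 h over untreated set 1, which shares no library with it, and 20 of the named genes differed by an edgeR adjusted p under 0.05 for the difference. In this contrast dose and depth change together and cannot be told apart. Values are the log2 fold change at 3 nM minus that at 195 pM. Among stress response genes, CHAC1 differed by 1.55 and DDIT3 by 1.22, and both were also higher at 195 pM than in set 1 (0.74 and 0.51).

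Among early genes, FOS differed by 3.31, JUN by 1.63, DUSP1 by 1.52, EGR4 by 1.33, IER2 by 1.05, EGR1 by 1.03 and CYR61 by 0.43. FOS and JUN were higher in untreated set 1 than in set 2, and over set 1 FOS stood at -0.56 and JUN at -0.03 at 195 pM. CXCL8 differed by 1.77. Among household mRNAs, MT-CO3 differed by 1.05, MT-CO1 by 0.93 and EEF1A1 by 0.19. MT-CO1 was at -1.08 at 195 pM over set 1, whose mitochondrial share was 10.0 to 11.3%, against 5.42 to 5.57% in set 2.

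Of the remaining genes, RP13-329D4.3 differed by 1.68 (adjusted p = 0.05 as rounded, just under the threshold, edgeR), RP11-1100L3.8 by 1.33, CH17-53B9.2 by 1.32 and ZNF792 by 1.03. MIR222HG differed by -0.62, RPSAP52 by -0.91 and CTC-338M12.4 by -1.81.

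Each difference is that between the 3 nM and 195 pM libraries minus that between untreated sets 2 and 1, and both parts were measured. Between the doses directly FOS differed by 0.37, JUN by 0.59, CHAC1 by 0.71, DDIT3 by 0.62, CXCL8 by 1.55, MT-CO1 by -0.08 and MT-CO3 by -0.09. Set 2 minus set 1 was -2.93 for FOS, -1.04 for JUN, -0.83 for CHAC1, -0.60 for DDIT3, -0.22 for CXCL8, -1.01 for MT-CO1 and -1.14 for MT-CO3. So the untreated sets made up more of the difference than the doses did for FOS, JUN, MT-CO1 and MT-CO3, similar parts came from each for CHAC1 and DDIT3, and the doses made up more for CXCL8.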

How the results depend on the processing

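Against 2289 higher and 2554 lower genes at 3 nM after 1 h, untreated set 1 as control gave 4339 higher and 3941 lower, the mean of both untreated sets gave 4082 higher and 3794 lower, and TPM with limma gave 757 and 252 (pseudocount 0.5) or 730 and 249 (0.1). Scaling by library totals only gave 2922 and 1832, and 0.01 nM after 1 h as control 3163 and 2594. Without single replicates the counts ranged from 1784 to 2353 higher and from 1636 to 2247 lower, the 1636 without the second 3 nM library. DESeq2, 2 other scalings, both other filters and smaller sets of libraries stayed within 1.5 times of both counts. Of genes at least 2-fold changed (59 higher, 14 lower), 120 and 55 were called with no filter, 82 and 22 in the 6 libraries alone, 804 and 150 over untreated set 1, 228 and 43 over both sets, 158 and 94 over 0.01 nM, 38 and 0 (pseudocount 0.5) or 40 and 0 (0.1) on TPM, 43 and 2 by DESeq2, 74 and 30 in the 21 deep libraries, 45 and 4 at a mean of at least 1 CPM, 91 and 23 in the 6 libraries with a replicate block, and 61 to 74 and 6 to 21 without single replicates (lower genes were 6 without the first and 9 without the second untreated library). On TPM values the step from 1 to 2 h had 1617 calls (pseudocount 0.5) and 1502 (0.1).

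Signs turned for FOS over untreated set 1 (-0.19, edgeR adjusted p = 0.0413), for CTC-338M12.4 over that set (0.93), for AP003419.11 over that set (-0.32) and over 0.01 nM (-0.32), and for RP11-1100L3.8 over 0.01 nM (-0.28). Of the 39 named genes, 18 lost their call on TPM with a pseudocount of 0.5 and 20 with 0.1, 6 over untreated set 1 and 8 over 0.01 nM, beside the reversals. DESeq2 no longer called RMRP (adjusted p = 0.0744) or RP11-464F9.1 (0.17). The causes were not tested. Replicate numbers did not consistently pair the samples: deviations of same-numbered libraries correlated at 0.0743, 0.0249 and -0.0342, and not every library correlated best with its own number. With a replicate block the counts were 2328 and 2602 in the fit of all libraries. In the 6 alone they were 2786 and 3046 with the block and 2470 and 2577 without it. Low counts limit the genes near 1 CPM.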

Other observations

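Several further gene groups, described with the same fit, moved little or unevenly at 3 nM after 1 h. Of 16 YAP target genes 7 were higher and 1 was lower, with a median of 0.13 on the log2 scale, against 12.7% and 14.2% of all genes. Of 21 targets of NRF2, the regulator of antioxidant genes, 10 were lower and 2 higher (57.1% called, median -0.12, and -0.035 on TPM values). Of 23 cholesterol synthesis and uptake genes 6 were lower and 2 higher, a called share of 34.8% against 26.8% of all genes. Their median of -0.04 turned to 0.09 on TPM values and to 0.001 when libraries were scaled by their totals only. Of 16 genes of the BCL2 family 4 were higher and 2 lower (37.5% called), with a median of -0.06 (0.03 on TPM values). Of 12 replication-dependent histone genes 2 were lower and none higher, a called share of 16.7% that is below the 26.8% of all genes.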
